A study of Homo sapiens with 32 samples.

Results

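The transcript changes seen after camptothecin (CPT) in U2OS cells were set against those that went with the loss of ATM in the same cell line. U2OS is a human osteosarcoma line. The question was which genes the 2 conditions changed in the same direction, which in opposite directions, and which only 1 of them changed. The members are 16 of the 32 libraries of the series, in 4 sets of 4. The CPT set holds libraries 26 to 29, which the labels give as U2OS treated with CPT, and its control holds libraries 30 to 33, given as U2OS treated with DMSO, the vehicle. By the study's methods U2OS cells received 400 nM CPT for 24 h and were harvested after 48 h of recovery, a dose given for the cells of its mass spectrometry, from which the RNA also came. The protocol in the labels speaks of treated HEK293T and untreated U2OS cells only. The ATM KO set holds libraries 2, 4, 6 and 8, and its control holds libraries 1, 3, 5 and 7, both assigned from their expression profiles and the study's own table. The labels contradict this assignment: they give 2, 4, 6 and 8 as HEK293T treated with CPT, 3, 5 and 7 as HEK293T treated with DMSO, and only library 1 as U2OS wild type. The sets are therefore called assigned ATM KO and assigned wild type, and every direction given for them rests on that assignment. By the methods, KO cells were made with a CRISPR/Cas9 plasmid and a repair template plasmid, single clones were picked, and KO and wild-type cells were grown for 72 h without treatment. How many clones these libraries stand for is not stated in the sources used here, so what is particular to a clone and what goes with ATM loss cannot be told apart.

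CPT traps topoisomerase I, the enzyme that relaxes supercoiled DNA, on the strand it has cut, and a replication fork that runs into the trapped enzyme leaves a double-strand break. ATM is the kinase that is switched on at such breaks. It phosphorylates the checkpoint kinase CHK2, p53 and many repair proteins, and cells without it fail to stop the cycle and to stabilise p53 normally after a break. CPT is thus a damage signal that passes partly through ATM, while cells without ATM lack part of the response and were not damaged on purpose here.

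The cell line of each library was described first, on 10 genes known for each line. The sets were drawn by their U2OS profile, so these levels describe the libraries and do not check the assignment. The summed level of the U2OS markers, which include CD44, CAV1 and CLU, ranged from 2564 to 5269 CPM (counts scaled to a common library total) over the 16 libraries. In the other 16 libraries of the series it ranged from 86.6 to 313 CPM. The summed level of the HEK293T markers, which include LIN28B and ZIC2, ranged from 89.0 to 173 CPM in the 16 libraries and from 912 to 1378 CPM in the others. CKB made up most of the HEK293T sum in the others (534 to 984 CPM). LIN28A, MYT1, PAX2, EYA1 and SALL1, also on that list, overlapped between the 16 libraries and the others and did not separate the lines. TWIST1, placed on the U2OS list, went against it, at 0 to 0.174 CPM in the 16 libraries and 19.6 to 54.6 CPM in the others. Of the 9 U2OS markers tested, 4 rose with CPT and 1 with the assigned ATM KO, so the sum itself moved with CPT, from 2564 to 3068 CPM in DMSO to 4688 to 5199 CPM. The part of these markers in the other results was not tested.

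Depth ranged from 1232674 counts on genes in library 2 to 5818796 in library 8, so that 3 counts, taken here as the floor, were worth 0.516 to 2.43 CPM. Mitochondrially encoded transcripts took 30.5 to 32.3% of counts with CPT and 20.6 to 26.8% with DMSO, against 21.6 to 38.0% in assigned ATM KO and 23.1 to 36.1% in assigned wild type. The CPT and the KO experiment share no library. They were separate experiments, and the DMSO libraries differed from the assigned wild-type libraries in 666 of 20539 genes tested (3.24%), although both are undamaged U2OS cells by their sets. Handling, time of culture and vehicle cannot be told apart in that difference, and they bear on any comparison of levels across the 2 experiments. The 2 effects were each taken against their own control. In these bulk samples fewer cells of a kind and less RNA per cell cannot be told apart. Errors and cutoffs rest on the spread between libraries within sets, pooled over the 4 sets and shared across genes in 1 fit.

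ATM itself was read in every library. Its level was 67.0, 76.6, 87.6 and 76.1 CPM in libraries 26 to 29 (CPT), and 77.4, 63.2, 75.3 and 54.4 CPM in libraries 30 to 33 (DMSO). It was 59.8, 56.6, 55.6 and 31.9 CPM in libraries 2, 4, 6 and 8 (assigned ATM KO) and 62.8, 71.5, 55.3 and 61.2 CPM in libraries 1, 3, 5 and 7 (assigned wild type). The 4 sets overlapped, apart from library 8, which lay below all others. The log2 fold change was 0.19 ± 0.15 (SE, n = 4 against 4) with CPT and -0.33 ± 0.16 with the assigned KO, neither past the cutoffs. The counts are tags at the 3′ end of the transcript. A 3′ tag outside the edited part of a gene does not show whether the protein is made, so these values do not check the assignment.

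A gene was called changed when its fold change passed 1 on the log2 scale with an adjusted p under 0.05 in edgeR's quasi-likelihood test. The same fit gave the CPT effect (CPT minus DMSO), the KO effect (assigned ATM KO minus assigned wild type) and their difference (CPT effect minus KO effect). Because the sets and the classes below were chosen on these same values, the effects are given as a description, with no p. CPT changed 2571 of the 20539 genes tested (12.5%), 1483 up (7.22%) and 1088 down (5.3%). The assigned ATM KO changed 1052 (5.12%), 553 up (2.69%) and 499 down (2.43%). The difference passed the cutoffs in 2213 genes (10.8%), upward in 5.58% and downward in 5.19% of those tested. Of these 2213, 656 were called in neither effect, and in all 656 the 2 effects had opposite signs. They are not in the classes below.

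Of the 3254 genes changed by either, 369 were changed by both, which is 14.4% of the CPT genes and 35.1% of the KO genes. The direction was the same in 286 of the 369 (77.5%), 154 up and 132 down, and opposite in 83, of which 55 rose with CPT and fell with the KO and 28 fell with CPT and rose with the KO. A gene was placed in 1 condition only when the other effect missed the cutoffs and the difference passed them. This left 1083 genes changed by CPT only (564 up, 519 down) and 327 by the assigned KO only (146 up, 181 down). For the remaining 1475 genes, 1119 called with CPT and 356 with the KO, the difference missed the cutoffs, and they are not counted as belonging to 1 condition.

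Read from the KO side, 27.8% of the genes that rose with the assigned ATM KO also rose with CPT and 5.06% fell, beside 7.22% and 5.3% of all genes tested. Of the genes that fell with the KO, 26.5% also fell with CPT and 11% rose. Read from the CPT side, 10.4% of the genes that rose also rose with the KO and 3.71% fell, while 12.1% of those that fell also fell with the KO and 2.57% rose. Across all genes the 2 effects were weakly related, with a Pearson r of 0.127 and a Spearman rho of 0.121 over 20539 genes. These are descriptions across genes, which are not independent replicates. Among the 9647 genes with a mean log2 CPM over 3, of which CPT changed 9.86% and the assigned KO 3.83%, the values were 0.224 and 0.175, and 110 of the 136 genes changed by both had the same direction (80.9%).

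The cutoff fell between close values. GXYLT2 was the last gene inside it with CPT (log2 fold change -1.00024) and ZCCHC3 the first outside (-0.999946). With the assigned KO these were EIF3D (-1.00017) and DOLPP1 (-0.998336), and for the difference ZFP14 (1.00034) and PAFAH1B3 (-0.998484). A further 3076 genes with CPT and 1728 with the KO had an adjusted p under 0.05 and a fold change within the cutoff.

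Promoters are shown for 3 genes that separate the 2 conditions: PLK1 and CDC20, mitotic genes lowered by CPT and not past the cutoffs in the assigned KO, and SFN, a p53 target raised by CPT and not past the cutoffs in the KO. The sequences are RefSeq's for GRCh38.p14, from 250 bases before to 50 after the start of the gene, and 23 of the 36 genes named by rule in the text had an entry. All 3 lie on the + strand, at chr16:23678639-23678938 (PLK1), chr1:43358731-43359030 (CDC20) and chr1:26862899-26863198 (SFN). Capitals mark CCAAT and TTTGAA in PLK1 and CDC20, and TGANTCA in SFN, on either strand.
PLK1: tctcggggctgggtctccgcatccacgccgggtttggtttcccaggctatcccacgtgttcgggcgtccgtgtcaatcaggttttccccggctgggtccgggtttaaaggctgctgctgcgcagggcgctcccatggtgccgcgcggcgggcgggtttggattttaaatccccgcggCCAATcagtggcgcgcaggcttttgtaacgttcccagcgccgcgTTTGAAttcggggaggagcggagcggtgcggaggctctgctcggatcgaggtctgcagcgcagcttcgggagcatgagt
CDC20: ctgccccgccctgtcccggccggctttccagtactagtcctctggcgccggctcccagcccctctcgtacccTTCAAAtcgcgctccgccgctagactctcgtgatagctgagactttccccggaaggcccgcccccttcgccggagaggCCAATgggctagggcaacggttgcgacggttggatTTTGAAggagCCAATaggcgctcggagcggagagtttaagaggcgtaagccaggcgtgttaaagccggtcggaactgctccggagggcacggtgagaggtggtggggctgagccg
SFN: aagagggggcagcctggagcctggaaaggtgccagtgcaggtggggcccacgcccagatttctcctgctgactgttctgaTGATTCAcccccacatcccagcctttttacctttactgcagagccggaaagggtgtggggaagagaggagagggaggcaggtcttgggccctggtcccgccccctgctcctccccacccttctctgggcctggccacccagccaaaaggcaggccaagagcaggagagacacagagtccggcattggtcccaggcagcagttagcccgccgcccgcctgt
CCAAT boxes and the TTTGAA element (the cell cycle homology region) are known from promoters of mitotic genes. TGANTCA takes in the site that AP-1 binds, whose middle base is C or G. The match in SFN has T there, so it is not that site, and shares of TGANTCA count any middle base. In PLK1 the CCAAT began 73 and the TTTGAA 29 bases before the start. In CDC20 CCAAT lay 100 and 55 bases and TTTGAA 178 and 65 bases before it, and in SFN TGANTCA lay 170 bases before it. Of 35 tested genes on the G2 and mitosis list, 30 had an entry, and 24 of these (80%) held CCAAT and 20 (66.7%) TTTGAA, on either strand. Over the 11981 tested genes with an entry the shares were 36.2% and 10.2%, and 35.7% and 15.4% over all 27195 promoters given. CCAAT was also frequent in other lists, at 75% for cholesterol synthesis, 56.7% for replication and 50% for p53 targets, while TTTGAA stood at 5%, 3.33% and 3.85% in these. TGANTCA stood in 43 of 357 promoters of the genes raised by CPT only (12%) and in 4 of 33 of those raised by CPT and lowered by the KO (12.1%), against 5.27% of tested genes and 7.73% of all promoters. GGAATG, the site of TEAD factors, stood in 23 of 90 promoters of the genes raised by both (25.6%), against 11.4% of tested genes and 14% of all, and in 4 of 19 of those lowered by CPT and raised by the KO (21.1%). In all, 6 motifs were searched in every class of genes and in the lists named here, and no share was tested. Over the classes, CACGTG ranged from 2.22% (raised by both) to 18.9% (raised by the KO only), against 9.57% of tested genes. TTTGAA ranged from 7.78% (raised by the KO only) to 26.3% (lowered by CPT and raised by the KO). TCACNNCA ranged from 5.26 to 12.1%, against 10.1% of tested genes. A match of letters is a description of these windows and not a bound site.

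Among the genes that rose in both conditions were a receptor, ligands and contractile genes. MET encodes the receptor of hepatocyte growth factor. It stood at 140, 133, 117 and 130 CPM with CPT and 32.4, 33.5, 33.3 and 37.5 CPM with DMSO. It stood at 212, 210, 287 and 241 CPM in assigned ATM KO and 53.5, 38.9, 59.0 and 51.2 CPM in assigned wild type. In neither experiment did the sets overlap, as held for 28.1% of all genes tested with CPT and 13.8% with the KO. Genes named by rule were chosen for this, so it is not a result about them. The effects were close, with log2 fold changes of 1.93 ± 0.15 and 2.23 ± 0.14 and a difference of -0.31 ± 0.20. MYLK, the myosin light chain kinase of smooth muscle and migrating cells, stood at 400, 409, 371 and 321 CPM with CPT and 39.0, 29.7, 38.0 and 39.7 CPM with DMSO. In assigned ATM KO it stood at 103, 124, 126 and 146 CPM, against 31, 29.4, 28.9 and 36.2 CPM. The control sets lay at the same height, and the rise was larger with CPT, 3.35 ± 0.15 against 1.99 ± 0.15. The difference of 1.36 ± 0.21 passed the cutoffs.

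C9orf84, a gene known for its part in meiotic recombination, was the named gene with the largest KO rise among those raised by both. Its level was 18.4, 23, 21.3 and 21.6 CPM with CPT against 2.45, 4.70, 1.97 and 4.04 CPM with DMSO. It was 66.1, 61.8, 87.8 and 61.4 CPM in assigned ATM KO against 7.75, 7.69, 8.22 and 7.35 CPM in assigned wild type. The effects were 2.67 ± 0.23 and 3.17 ± 0.19, while the DMSO libraries lay 1.23 log2 units below the assigned wild type. In the remaining genes named by rule for a rise in both, the CPT effect was the larger. FLG-AS1 had a mean of 162 CPM with CPT and 2.2 with DMSO, and 26.8 against 4.02 CPM in the KO experiment, so 6.18 ± 0.22 against 2.64 ± 0.24 on the log2 scale. FLG-AS1 is antisense to filaggrin and whether counting used the strand is not stated, so reads of either partner cannot be told apart. SLAMF7, a receptor known from lymphocytes, rose by 5.55 ± 0.23 and 1.76 ± 0.28, and CFAP58, a gene of the sperm flagellum, by 6.14 ± 0.28 and 1.72 ± 0.27. For CFAP58 the DMSO libraries lay 2.08 log2 units below the assigned wild type. Over all 154 genes raised by both, the median effect was 2.40 with CPT and 1.57 with the KO, the CPT effect was the larger in 106, and the difference passed the cutoffs in 42.

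GDF15, a secreted stress cytokine that p53 induces, was the only one of the 33 tested genes on the list of p53 targets that rose in both. The list does not hold every known target of p53. It stood at 297, 326, 359 and 405 CPM with CPT against 18, 36.6, 29.6 and 29.5 CPM with DMSO, and at 62.9, 99.4, 78.0 and 61.6 CPM in assigned ATM KO against 22.5, 33.5, 37.1 and 32.3 CPM. The sets did not overlap in either experiment. The effects were 3.61 ± 0.17 and 1.22 ± 0.17, with a difference of 2.39 ± 0.24. Of 10 ligands of the EGF family, 3 rose and 2 fell with CPT and 4 rose with the assigned KO, with medians of 0.24 and 0.41, and AREG and NRG1 rose in both. AREG, amphiregulin, stood at 65.1 to 84.4 CPM with CPT against 2.72 to 7.20 CPM with DMSO, and at 15.2 to 19 CPM in assigned ATM KO against 2.26 to 11.6 CPM, with effects of 4.23 ± 0.24 and 1.32 ± 0.26. Without library 7 the KO effect of AREG was 0.98 and no longer past the cutoffs. NRG1, neuregulin, rose by 2.96 ± 0.18 and 1.39 ± 0.18. Effects of nearly equal size were seen for CRYAB, the small heat shock protein αB-crystallin (1.17 ± 0.18 and 1.28 ± 0.17), for PERP, a desmosome protein (1.14 and 1.13), for TLR4, the receptor of bacterial lipopolysaccharide (1.36 and 1.40), and for OPTN, an autophagy receptor (1.39 and 1.62).

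The genes that fell in both included a regulator of smooth muscle genes and several secreted or matrix proteins. MYOCD, myocardin, the coactivator that drives smooth muscle genes, was nearly lost with CPT, at 0, 0.658, 0 and 1.27 CPM against 53.1, 34.1, 32.7 and 34.4 CPM with DMSO. In assigned ATM KO it stood at 2.36, 4.63, 6.0 and 7.21 CPM against 41.8, 33, 24.1 and 33.3 CPM. The sets did not overlap, and the fall was deeper with CPT, with log2 fold changes of -6.19 ± 0.35 and -2.46 ± 0.23. RGS16, which shortens signalling through G proteins, stood at 4.98, 9.21, 10.6 and 8.27 CPM with CPT against 80.9, 78.0, 65.7 and 55.8 CPM with DMSO. It stood at 1.57, 2.06, 2.82 and 4.17 CPM in assigned ATM KO against 23.2, 24.9, 16.2 and 31.5 CPM. The effects were alike in size, -3.08 ± 0.20 and -2.94 ± 0.25, with a difference of -0.15 ± 0.37, from control levels 1.54 log2 units apart.

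SMOC1, a secreted calcium-binding protein of basement membranes, stood at 4.05, 4.93, 5.32 and 6.68 CPM with CPT against 101, 152, 97.2 and 117 CPM with DMSO. Its levels were 9.44, 18, 17.3 and 8.02 CPM in assigned ATM KO against 55.8, 63.3, 62.9 and 49.3 CPM. Both pairs of sets were apart, with effects of -4.46 ± 0.21 and -2.13 ± 0.19. The other named genes of this kind were IGSF10 (-3.48 ± 0.24 and -2.23 ± 0.21), LRIG3 (-2.80 ± 0.20 and -2.16 ± 0.19) and CSGALNACT1 (-2.03 ± 0.23 and -2.89 ± 0.31). LRIG3 is a membrane protein of the family that tempers receptor kinases, and CSGALNACT1 starts chondroitin sulfate chains. Only CSGALNACT1 among the 6 had the larger effect in the KO. The difference for IGSF10, -1.24 ± 0.34, was lost without library 6 (-0.97). FOXP1, a forkhead transcription factor, fell by nearly the same amount in both, -1.73 and -1.45, as did the RNA of LINC00511, -1.42 and -1.42. Over all 132 genes lowered by both, the median effect was -1.80 with CPT and -1.64 with the KO, and the difference passed the cutoffs in 22. Of the 286 genes with the same direction, the control sets differed past the cutoffs in 47 (16.4%).

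Genes that moved in opposite directions included ligands, matrix and adhesion genes that rose with CPT and fell with the assigned KO. INHBA encodes the subunit of activin A, a ligand of the TGF-β family. It stood at 1058, 1018, 1072 and 929 CPM with CPT against 238, 306, 302 and 351 CPM with DMSO. In assigned ATM KO it stood at 119, 87.5, 102 and 95.7 CPM against 459, 350, 515 and 342 CPM in assigned wild type. Both controls lay between the CPT and the KO libraries, and the effects were 1.77 ± 0.14 and -2.05 ± 0.15, 3.82 ± 0.21 apart.

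FAP, a surface protease of activated fibroblasts, stood at 30.8, 24.7, 24.8 and 25.8 CPM with CPT against 4.90, 5.95, 9.02 and 5.70 CPM with DMSO. It stood at 3.93, 3.60, 1.76 and 1.44 CPM in assigned ATM KO against 18.6, 7.69, 11.9 and 10.2 CPM. No sets of 1 experiment overlapped, and the difference of 4.47 ± 0.38 was the largest among the genes named by rule for opposite change. CDH13, a cadherin without a cytoplasmic tail, changed by 1.94 ± 0.20 and -1.98 ± 0.22, and LINC01583 by 1.83 ± 0.23 and -1.98 ± 0.27. In both the DMSO libraries lay well below the assigned wild type, by 1.6 and 1.43 log2 units. JAG1, a Notch ligand, rose by 1.19 ± 0.16 and fell by 2.01 ± 0.19 on the log2 scale in the 2 experiments, and COL4A1, a basement membrane collagen, changed by 1.19 ± 0.15 and -1.28 ± 0.16. KRT17, an intermediate filament of stressed epithelium, changed by 1.41 ± 0.14 and -1.25 ± 0.15, and SERPINE2, an inhibitor of thrombin and plasminogen activators, by 1.23 ± 0.16 and -1.06 ± 0.17. The KO call of SERPINE2 was lost without library 1 (-0.84) or library 8 (-0.87).

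The reverse pattern, down with CPT and up with the assigned KO, was rarer. ERBB3, a receptor that binds neuregulin, stood at 2.18, 4.60, 1.06 and 2.86 CPM with CPT against 10.4, 13.1, 13 and 14.7 CPM with DMSO. It stood at 22.8, 29.9, 26.6 and 26.3 CPM in assigned ATM KO against 8.52, 9.95, 10.5 and 5.77 CPM. The effects were -2.23 ± 0.28 and 1.63 ± 0.22, with no overlap of sets. KCNH2, the hERG potassium channel, stood at 1.87, 1.97, 2.84 and 3.50 CPM with CPT against 7.90, 7.51, 4.79 and 8.08 CPM with DMSO. In assigned ATM KO its levels were 23.6, 28.8, 33.3 and 34.0 CPM against 5.42, 6.33, 7.65 and 8.4 CPM. The controls lay together and the effects were -1.47 ± 0.29 and 2.08 ± 0.21.

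ZNF395, a zinc finger protein, stood at 6.54, 7.89, 7.10 and 10.8 CPM with CPT against 34.3, 26, 29.6 and 22.6 CPM with DMSO, and at 51.9, 67.5, 62.6 and 72.1 CPM in assigned ATM KO against 10.1, 22.2, 18.7 and 22.6 CPM. Its effects were -1.79 ± 0.20 and 1.74 ± 0.17. CNTNAP2, an adhesion protein of neurons, changed by -1.93 ± 0.24 and 1.48 ± 0.22, from control sets 1.09 log2 units apart. The microtubule protein MAP2 (-1.33 and 1.97), the ephrin receptor EPHA5 (-3.95 and 1.25) and the irritant channel TRPA1 (-1.19 and 1.74) belonged to the same 28 genes. Of all 83 genes changed in opposite directions, the control sets differed past the cutoffs in 21 (25.3%), beside 3.24% of all genes tested. The share was 16.4% for genes of the same direction. It was 10.1% (up) and 12.1% (down) for CPT only, and 16.4% (up) and 8.29% (down) for the KO only. Both controls enter the effects by which these classes were chosen, so the choice itself can raise such a share. The part of the difference between the control sets in the opposite calls was not tested.

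**Figure D1:**
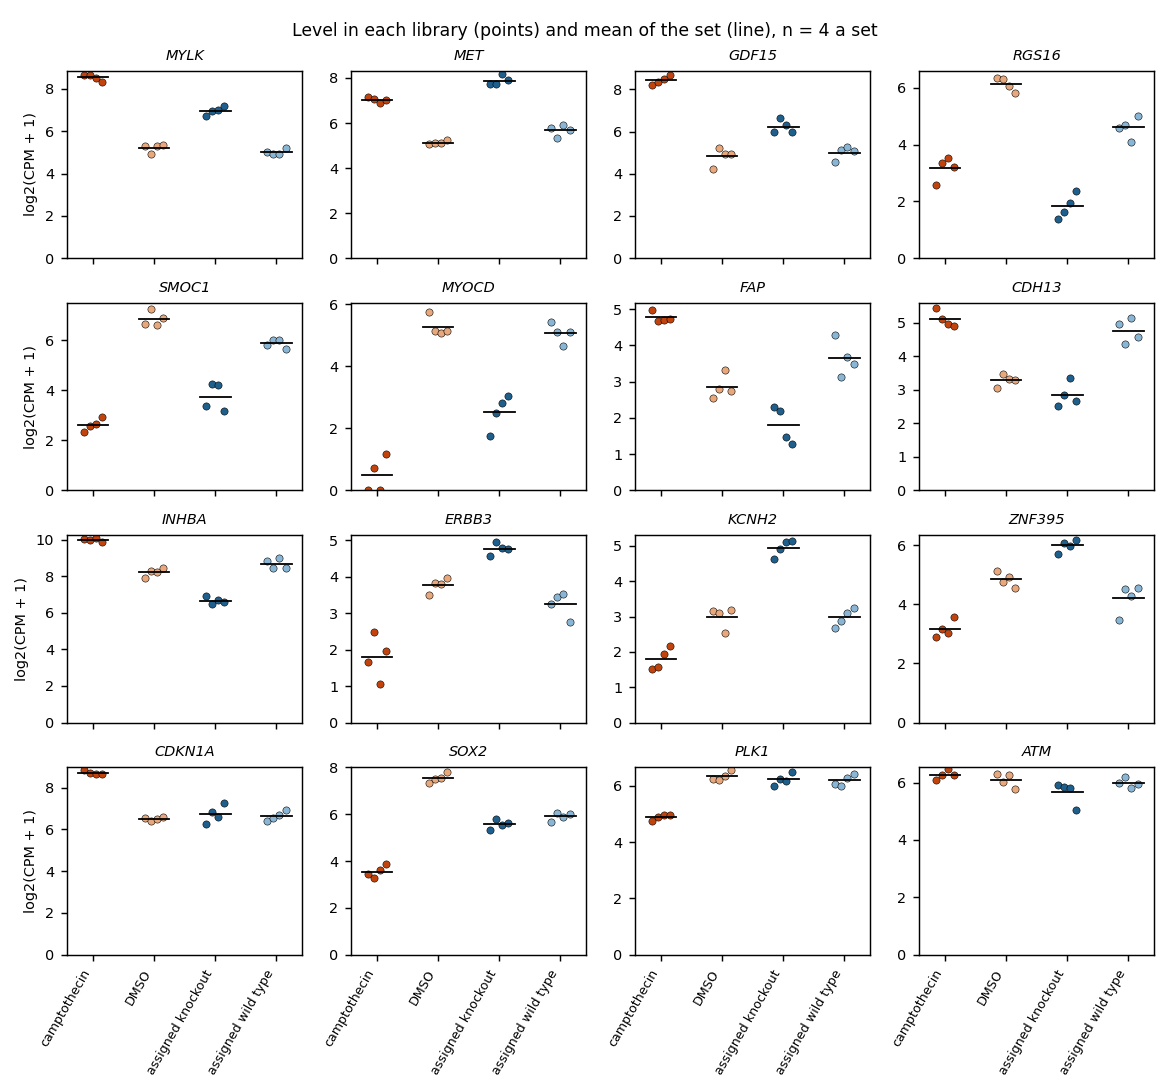
Level in each library, as log2(CPM + 1), of 16 genes named in the text, with 4 points a set and a line at the mean of the set. MYLK, MET and GDF15 lie above their control in both experiments and RGS16, SMOC1 and MYOCD below it, FAP, CDH13 and INHBA go up with CPT and down in assigned ATM KO, and ERBB3, KCNH2 and ZNF395 go the other way. CDKN1A, SOX2 and PLK1 move with CPT, and the 4 sets of ATM overlap apart from library 8.

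Genes called with CPT and not with the assigned KO included p53 targets among those that rose and cell cycle genes among those that fell. Of 33 tested p53 targets, 20 rose with CPT and none fell, against 1 up and none down with the assigned KO, and in 14 the difference passed the cutoffs. The median of the list was 1.16 with CPT and 0.24 with the KO, beside -0.01 and 0.03 over all genes. At an adjusted p under 0.05 and any fold change, 30 rose with CPT, and 8 rose and 1 fell with the KO. Under that rule 5647 of all 20539 genes tested changed with CPT, 50.2% of them upward. With the KO 2780 changed, 47.1% of them upward. CDKN1A, the p21 inhibitor that halts the cycle, stood at 459, 417, 398 and 398 CPM with CPT against 92.3, 83.3, 87.7 and 95.2 CPM with DMSO. In assigned ATM KO it stood at 75.5, 111, 96.5 and 151 CPM against 83.7, 92.8, 101 and 120 CPM, sets that overlapped. The effects were 2.22 ± 0.15 and 0.14 ± 0.15, 2.08 ± 0.21 apart. The death receptor FAS had 2.75 ± 0.18 against 0.54 ± 0.20, and MDM2, the ligase that degrades p53, had 1.98 against 0.32.

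The mitotic genes moved the other way. Of 35 on the list of G2 and mitosis, 12 fell with CPT and none rose, while none passed the cutoffs with the assigned KO. The medians were -0.90 and -0.12, and the difference passed the cutoffs in 8. At an adjusted p under 0.05 and any fold change, 33 fell with CPT and 6 with the KO, beside the counts over all genes given above for that rule. PLK1, the kinase of mitotic entry whose promoter is given above, stood at 26.2, 28.9, 29.8 and 29.9 CPM with CPT against 73.8, 72.0, 80.6 and 94.1 CPM with DMSO. It stood at 62.1, 74.7, 70.9 and 89.5 CPM in assigned ATM KO against 66.6, 62.4, 76.3 and 84.0 CPM. Only the CPT set stood apart, with effects of -1.48 ± 0.15 and 0.04 ± 0.14. CDC20, the activator of the anaphase-promoting complex, had -1.14 ± 0.15 against 0.10, and MKI67, the Ki-67 proliferation marker, had -1.15 against -0.07. Of 35 replication genes, 10 fell with CPT and none passed the cutoffs with the KO. The medians were -0.66 and -0.26. At an adjusted p under 0.05 and any fold change, 27 fell with CPT, and 8 fell and 2 rose with the KO, beside the same counts over all genes. The helicase subunits MCM6 (-1.81 against -0.14) and MCM7 (-1.50 against 0.27) were among the 7 whose difference passed.

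Of 28 genes of damage sensing and topoisomerase repair, 2 fell with CPT and 1 with the assigned KO. These counts are near the shares of all genes tested that fell, 5.3% and 2.43%. At an adjusted p under 0.05 and any fold change, 13 fell with CPT, and 2 fell and 2 rose with the KO. Of all 20539 genes tested, 5647 changed with CPT under that rule and 2780 with the KO, in either direction. The nearness to the shares of all genes is thus stated for the fold cutoff only. The 1 gene called with the KO was CHEK1, the checkpoint kinase that acts below ATR. It stood at 21.2, 12.4, 18.5 and 17.3 CPM in assigned ATM KO against 47.3, 48.9, 45.1 and 55.4 CPM, and at 21.8, 26.3, 20.9 and 21.3 CPM with CPT against 52.0, 47.3, 44.0 and 36.6 CPM. The sets did not overlap in either experiment, and the CPT effect of -0.99 ± 0.16 lay just within the fold cutoff while the KO effect was -1.51 ± 0.17.

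The 8 genes named by rule for CPT alone were picked for the largest difference, so the 2 conditions lie far apart in them by choice. SOX2, a transcription factor of stem cells, stood at 9.96, 8.55, 11.4 and 13.7 CPM with CPT against 161, 178, 188 and 220 CPM with DMSO. In assigned ATM KO it stood at 38.5, 54.6, 45.0 and 48.3 CPM against 50.4, 66.1, 58.1 and 63.5 CPM. The effects were -4.10 ± 0.17 and -0.36 ± 0.15, and the DMSO libraries lay 1.64 log2 units above the assigned wild type. IL7R, the interleukin 7 receptor, stood at 208, 190, 177 and 171 CPM with CPT against 31.6, 31.3, 29.3 and 32.1 CPM with DMSO. It stood at 26, 21.1, 32.6 and 28.7 CPM in assigned ATM KO against 56.6, 36.2, 62.1 and 49.3 CPM. The KO libraries were thus the lower, at -0.87 ± 0.16 within the cutoff, and the CPT effect was 2.58 ± 0.15.

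The hair keratin-associated gene KRTAP2-3 had a mean of 200 CPM with CPT, 2.94 with DMSO, 17.4 in assigned ATM KO and 11.5 in assigned wild type, with effects of 6.09 ± 0.22 and 0.53 ± 0.22. SUGCT, a mitochondrial CoA transferase, had means of 131, 5.61, 5.14 and 4.86 CPM in the same order and effects of 4.54 ± 0.19 and 0.00. CCDC148 had 4.22 ± 0.19 against 0.59 ± 0.27. The chemokine CXCL14 fell from 1732 to 73.4 CPM with CPT (-4.56 ± 0.18) and had means of 313 and 619 CPM in assigned ATM KO and wild type (-0.99 ± 0.16), just within the cutoff. BMF, a BH3-only protein that promotes apoptosis, had -4.18 ± 0.31 against 0.36, and DRD1, a dopamine receptor, -3.71 ± 0.23 against 0.06. For DRD1 the DMSO libraries lay 1.28 log2 units below the assigned wild type.

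Fewer genes belonged to the assigned KO only. Those that rose had a median KO effect of 1.40. Those named by rule were ranked by the difference, which favours a CPT effect of opposite sign. FZD3, a Wnt receptor, had means of 136 CPM in assigned ATM KO and 58.8 in assigned wild type, and 37.5 with CPT against 69.4 with DMSO, so 1.24 ± 0.14 against -0.89 ± 0.14. ZDHHC23, a palmitoyltransferase, had 61.4 against 22.8 CPM and 13.9 against 22.9 CPM, with a difference of -2.21 ± 0.25. MAL2, a protein of apical transport in epithelia, had 1.33 ± 0.20 against -0.94 ± 0.22, and FMNL2, a formin that extends actin filaments, 1.44 ± 0.25 against -0.81. The DMSO libraries lay 1.96 log2 units above the assigned wild type for FMNL2.

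The genes that fell with the assigned KO only included 4 that were at or near 0 there. TRIM59, a RING-type ubiquitin ligase, had no count in any of the 4 assigned ATM KO libraries and 406 counts in the 4 of assigned wild type, which makes it at least 182-fold lower when 3 counts over the set are taken as the floor. Its mean was 25.3 CPM with CPT and 41.4 with DMSO. ARHGEF10, a guanine nucleotide exchange factor, had 2 counts against 450, a ratio of 303 with a 95% interval of 83.5 to 2512. SHOX2, a homeobox factor of limb and heart, had 2 against 441 (ratio 297, 81.8 to 2462), and MAGEC1, a cancer testis antigen, 2 against 218 (ratio 147, 40.2 to 1221). The intervals are exact, from the counts alone, and do not cover the spread between libraries. With CPT, SHOX2 stood at 50.3 CPM against 47.7 and ARHGEF10 at 42.1 against 33.2, with sets that overlapped. MAGEC1 was higher with CPT, at 39.3 CPM against 22.8. Its CPT effect of 0.78 ± 0.17 lay within the fold cutoff, and its sets were apart.

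Genes beside these 4 were looked at in order along the chromosome. On chromosome 8, CLN8, 2 genes from ARHGEF10, had no count in assigned ATM KO and a mean of 9.66 CPM in assigned wild type, and ERICH1, the third gene on that side, had a KO effect of -5.00 ± 0.46. On the other side KBTBD11 had -1.39 ± 0.33. The genes beside TRIM59 and SHOX2, both on chromosome 3, were not near 0: SMC4 had -0.59 ± 0.14, KPNA4 -0.43 ± 0.14 and RSRC1 -0.69 ± 0.17. Beside MAGEC1, on chromosome X, SLITRK4 had -0.97 ± 0.17 and LDOC1 0.07 ± 0.19, and SPANXB1 rose with the assigned KO (1.99 ± 0.35), a member of a gene family of near-identical copies whose counts are uncertain. Genes that are lost together in neighbouring positions and effects of ATM loss cannot be told apart here.

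Lists of genes were read as wholes, by counts and medians, beside 7.22% of all genes up and 5.3% down with CPT and 2.69% up and 2.43% down with the assigned KO. Of 15 chemokines and interleukins, 8 rose with CPT and none fell, while none rose with the assigned KO and 4 fell, with medians of 1.34 and -0.76. CXCL12, the ligand of CXCR4, stood at 4.98 to 15.8 CPM with CPT against 2.18 to 4.07 CPM with DMSO, and at 0 to 1.54 CPM in assigned ATM KO against 1.81 to 3.87 CPM. It changed in opposite directions along with LIF (1.34 ± 0.31 and -1.19 ± 0.40) and CCL20 (1.86 ± 0.37 and -2.22 ± 0.70), and all 3 have few counts. The KO calls of LIF and CCL20 were lost without library 6, 8, 3 or 5, and that of LIF also without library 4, with effects of -1.16 to -0.92 (LIF) and -2.27 to -1.83 (CCL20). Of 17 matrix proteases and plasminogen genes, 5 rose with CPT, and 1 rose and 2 fell with the KO. MMP3, stromelysin, rose in both (5.90 ± 0.32 and 1.59 ± 0.39), though its KO levels of 1.03 to 8.02 CPM overlapped those of assigned wild type, 0.905 to 3.10 CPM.

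The genes of cholesterol synthesis and uptake gave small effects of opposite sign. Of 26, 18 had a positive CPT effect and a negative KO effect, a pattern held by 20.9% of all genes tested, and none had a positive effect in both. The medians were 0.36 with CPT and -0.34 with the assigned KO, and the difference passed the cutoffs upward in 10. Only HMGCS1 rose and SREBF1 fell with CPT, and only FDFT1 fell with the KO. HMGCS1, which makes HMG-CoA, stood at 531, 485, 489 and 435 CPM with CPT against 222, 189, 237 and 200 CPM with DMSO, and at 196, 136, 162 and 191 CPM in assigned ATM KO against 310, 284, 319 and 386 CPM. The effects were 1.19 ± 0.14 and -0.93 ± 0.14. FDFT1, squalene synthase, had 0.47 ± 0.14 and -1.38 ± 0.15, with 173, 181, 180 and 172 CPM with CPT against 129, 136, 123 and 122 CPM, and 59.8, 72.1, 66.5 and 113 CPM in assigned ATM KO against 194, 181, 213 and 239 CPM. For both genes the sets of each experiment were apart.

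Structural genes were mixed. Of 36 collagens, 9 rose and 3 fell with CPT, and 4 rose and 6 fell with the assigned KO. COL17A1, the hemidesmosomal collagen, rose from 0 to 0.564 CPM in DMSO to 86.2 to 102 CPM with CPT, and from 0 to 1.36 CPM to 3.93 to 8.64 CPM in assigned ATM KO. COL3A1, a fibrillar collagen, fell in both (-1.57 ± 0.16 and -2.56 ± 0.17). COL6A3, a chain of the microfibrillar type, stood at 5.51, 6.69, 9.17 and 4.65 CPM in assigned ATM KO against 64.3, 62.0, 75.4 and 53.5 CPM, an effect of -3.25 ± 0.19, and its CPT effect was 0.41 ± 0.14. Of 29 keratin and epidermal adhesion genes, 12 rose and 1 fell with CPT, and 5 rose and 2 fell with the KO, with medians of 1.14 and 0.40. LAMA3, a laminin chain of epithelial basement membranes, had 186 counts with CPT and 3 with DMSO, a ratio of 66.9 with a 95% counting interval of 22.5 to 327. DSP, desmoplakin, rose in both (6.88 ± 0.38 and 2.40 ± 0.73) from a mean of 0.3 CPM in each control. Its KO call rests on few counts and was lost without library 8 (1.76), 5 (1.89) or 7 (1.83). SFN, stratifin, whose promoter is given above, had 1.39 ± 0.16 and -0.34 ± 0.17.

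Of 17 smooth muscle contractile genes, 6 rose and 1 fell with CPT, and 3 rose and 2 fell with the assigned KO. MYOCD fell in both, while CNN1, calponin, rose in both (2.75 ± 0.22 and 1.15 ± 0.21), as did MYLK and CRYAB. Without library 8 the KO effect of CNN1 was 0.76 and missed the cutoff. ACTA2, smooth muscle actin, stood at 32.7, 36.2, 31.6 and 36.0 CPM with CPT against 2.45, 2.5, 2.82 and 0.95 CPM with DMSO, and at 0.787 to 6.09 CPM in assigned ATM KO against 1.81 to 5.67 CPM. Only the CPT set was apart, at 3.98 ± 0.27 against -0.03 ± 0.35. Of 23 genes of BMP and TGF-β signalling, 2 rose and 8 fell with CPT, and none rose and 8 fell with the KO, 4 of them in both. SOSTDC1, a secreted BMP and Wnt antagonist, fell by 5.96 ± 0.40 and 1.49 ± 0.26 on the log2 scale, and the nodal antagonist LEFTY1, with no count with CPT and 67 counts with DMSO, was at least 20.7-fold lower. BMP4 fell with CPT only (-1.69 against 0.08), and NOG, the BMP antagonist noggin, had -0.87 with CPT and -1.29 with the KO.

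Of 52 chaperones, 5 rose and 2 fell with CPT and 2 rose with the assigned KO, both of them small heat shock proteins that also rose with CPT, CRYAB and HSPB2. HSPB2 has few counts and lost its CPT call without library 29 (2.21), 31 (2.26) or 33 (2.15). HSPB8, another of that family, had 2.11 ± 0.27 with CPT and -0.63 ± 0.36 with the KO. Of 36 genes of ATF4 and amino acid stress, 2 rose and 4 fell with CPT and none passed the cutoffs with the KO. SLC7A11, the cystine transporter, fell with CPT (-1.90 ± 0.16) and had -0.39 ± 0.16 with the KO, while ATF3 rose with CPT (2.36 ± 0.19 against 0.30 ± 0.20). Of 21 antioxidant targets of NRF2, 1 rose and 1 fell with CPT, and 2 rose with the KO. Of these, 13 had a negative CPT effect and a positive KO effect, a pattern of 24.4% of all genes, and the difference passed the cutoffs downward in 4. Of 16 feedback genes of NF-κB, 5 rose with CPT and none passed the cutoffs with the KO. Of 35 interferon-stimulated genes, 7 rose and 3 fell with CPT, and 4 rose and 1 fell with the KO, most with few counts. SAMD9L (1.03 ± 0.20 and 1.03 ± 0.22) and IFIT3 (2.12 ± 0.31 and 1.21 ± 0.36) rose in both. The KO call of IFIT3 was lost without library 8 (0.88) or 7 (1.09), that of SAMD9L without library 8 (0.96) or 5 (0.95), and the CPT call of SAMD9L without library 26 (0.87) or 30 (0.95). None of 13 mitochondrially encoded genes passed the cutoffs in either, with medians of 0.57 and 0.19.

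Of the assigned sets, only library 1 crosses a line the labels draw. Without it, the libraries compared are those the labels separate, 2, 4, 6 and 8 against 3, 5 and 7. That split called 955 genes (1052 with library 1). Of these, 265 had the same direction as with CPT and 76 the opposite, against 286 and 83 with library 1.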

How the data were processed

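RNA was sequenced by the study with a 3′ end kit (QuantSeq FWD with UMIs, unique molecular identifiers), and the authors made counts with the Lexogen pipeline on the BlueBee platform. The aligner, genome build and annotation are not given in the sources used here. The deposited table holds raw counts per gene (60107 genes, 92 spike-ins and 5 summary rows). Counts assigned to no feature took 22.8 to 39.9% in the 16 libraries and were left out with the spike-ins. Symbols came from GENCODE 29 and matched 20224 of 20539 tested genes.

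Following the study, a gene was tested if 2 or more libraries held over 1 count of it, and called at an absolute log2 fold change over 1 and adjusted p under 0.05. edgeR 4.0.16 (R 4.3.3) fitted the 16 libraries at once, with TMM normalization, the quasi-likelihood test and Benjamini-Hochberg adjustment. Each standard error is the absolute log2 fold change divided by the square root of the F value of its test. The study used edgeR's likelihood ratio test, tried as an alternative beside DESeq2 1.42.0, other filters, normalization, thinned counts and libraries left out. CPM use TMM-scaled library totals, and unscaled totals for the cell line markers and count ratios. Scripts were tested on simulated data. Intervals from counts and floors cover counting error only. The labels name no separate cultures, and the methods state 4 independent repeats.

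The 36 genes named by rule had a mean log2 CPM over 3 and sets that did not overlap in each called effect. They were the 6 up and 6 down of the same direction and the 4 of each opposite kind, ranked by the smaller of the 2 effects, and the 4 up and 4 down of each condition alone, ranked by the difference. ATM, the cell line markers and genes of the lists were named besides, and the genes at the cutoff, the neighbours and other genes changed by both were chosen after their values were seen. The members and lists were chosen with earlier results of these data known. Some items, 1 of the genes named by rule among them, are not reported here.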

Additional observations from a re-analysis of the deposited data

Results flagged for a closer look

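The named genes, ATM, the mitochondrial share and the counts on genes formed 156 sets of 4 libraries. Of these, 14 held 1 library whose gap to the others was above Dixon's 95% critical value for 4 values, where chance gives about 1 in 20. In the DMSO set, library 31 was low for MYLK (29.7 CPM, others 38.0 to 39.7) and library 32 for KCNH2 (4.79 CPM, others 7.51 to 8.08). Library 30 was high for MYOCD (53.1 CPM, others 32.7 to 34.4), SUGCT (8.99 CPM, others 4.28 to 4.79) and DRD1 (47.4 CPM, others 33.5 to 35.4). In the CPT set, library 26 was low for KRTAP2-3 (159 CPM, others 210 to 217) and library 27 high for MAL2 (10.5 CPM, others 5.41 to 5.92).

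In the assigned ATM KO set, library 8, the deepest, was low for ATM (31.9 CPM, others 55.6 to 59.8) and LRIG3 (8.18 CPM, others 11.8 to 12.4). It also held the 2 counts of ARHGEF10 and of MAGEC1 (0.321 CPM each, the others at 0). Library 4 was low for MAL2 (20.6 CPM, others 29.9 to 31.4) and library 2 low for FZD3 (127 CPM, others 139 to 141). In the assigned wild type, library 3 was high for CSGALNACT1 (14.5 CPM, others 12.2 to 12.4). The genes named by rule were chosen for sets that do not overlap in each called effect, and ATM had no called effect. Overlap of sets could therefore arise only in effects that were not called.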

How the results depend on the processing

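The counts of genes depended most on the fold cutoff. With an adjusted p under 0.05 and no cutoff on fold change, 5647 genes changed with CPT, 2780 with the assigned ATM KO, 3634 in the difference and 2220 between the control sets. Then 916 had the same direction, 377 the opposite, 2018 were changed by CPT only and 730 by the KO only. With libraries thinned to the lowest total, 181 genes had the same direction (286 at full depth). The Pearson r across genes was 0.215 with edgeR's filterByExpr, 0.0805 without a filter and 0.179 with separate fits, and the Spearman rho 0.174, 0.0781 and 0.149. Leaving out 1 library gave 2405 to 2611 genes for CPT, 861 to 1086 for the KO, 2017 to 2254 for the difference and 532 to 710 between controls. It gave 247 to 298 genes of the same direction, 67 to 83 of the opposite, 1003 to 1098 for CPT only and 291 to 356 for the KO only, with Pearson r from 0.115 to 0.132 and Spearman rho from 0.105 to 0.139. The share with the same direction was 70.8% with no cutoff on fold change. Under all other alternatives it lay between 75.1% (thinned counts) and 80.2%. These included leaving out libraries 1 and 2, the shallowest, together, chosen after seeing the data. Of 389 called effects of named and listed genes, 304 passed under every alternative, and none reversed. The calls lost included genes with few counts, such as LIF, CCL20 and HSPB2, and abundant genes whose effect lay near the fold cutoff, such as CENPF, KIF11 and CLU. DESeq2 kept 233 of the 286 genes of the same direction and 62 of the 83 opposite, while thinned counts kept 151 and 38. Separate fits give no value for the difference. No paired analysis was possible because the groups share no replicate number in the labels.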
